A study of Mus musculus with 6 samples.

Results

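The genes described here are 40 genes of cell division and DNA replication, read on arrays of duodenal RNA. There were 3 wild-type samples and 3 labelled VDR-null (lacking the vitamin D receptor), from mice 10 weeks old on a C57Bl/6 background. The genes were chosen by symbol: a probe set counted when the array's annotation paired it with that symbol alone, and of several the brightest over the 6 arrays was kept. This gave a value for 38 of the 40 among 22180 genes in all, and all 38 were bright enough to be tested. Ccnb1 had no probe set named in this way, and the probe set of Ccne2 is shared with Ints8, so neither is given a value. RNA of each sample was hybridised to 1 Affymetrix Mouse Gene 2.0 ST array, and a value is the log2 of a probe set's normalised signal, so a difference of 1 is a doubling. For the targeted allele, sex, diet and litters the labels give nothing, nor do they state that each sample is a separate mouse.

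The epithelium of the small intestine is renewed from the crypts, where stem cells and their transit-amplifying daughters divide, while the absorptive cells of the villus have left the cell cycle. Before S phase the MCM proteins are loaded onto origins of replication, and the enzymes of deoxynucleotide synthesis supply the building blocks. Later in the cycle a separate wave of genes is transcribed for chromosome condensation, the spindle, its checkpoint and cytokinesis. The members are described below by these roles: 10 replication genes (the Mcm family, Pcna, Tyms, Rrm1 and Rrm2), 6 genes of S phase entry, origin licensing and firing and the replication checkpoint (called G1/S control), and 22 mitotic genes, whose transcripts rise towards mitosis.

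The 6 arrays had medians between 5.15 and 5.19, and 13174 genes passed the filter on dim signals. Vdr itself did not separate the genotypes, reading 10.72, 10.95 and 11.11 (wild-type replicates 1 to 3) against 10.99, 10.86 and 10.85 (VDR-null); its probes may lie outside the targeted part, whose position the labels do not state, so this does not check them. The duodenal transcription factors Pdx1 and Gata4 were bright on all 6 arrays, while the ileal genes Slc10a2, Fgf15 and Fabp6 were below the filter on each. Of 7 listed distal intestine genes with a probe set 1 did pass the filter, with a signal of 9.56 to 10.05. limma placed 0 of the 13174 genes past an adjusted p of 0.05 (percent called 0), with 689 at an unadjusted p under 0.05. P-values therefore measure only the spread between 3 samples of each genotype, which may be technical.

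Signals of the cell division genes lay lower in VDR-null than in wild-type duodenum in 37 of 38 members, but 0 passed limma's test adjusted over all genes. The exception was Gmnn, geminin, the inhibitor of origin licensing (0.0294 ± 0.12, SE). Among all tested genes 56% were lower and 44% higher. Differences ran from -0.42 in Mki67 to 0.0294 in Gmnn on the log2 scale, averaging -0.22 (median -0.23), against a median of -0.0264 over all tested genes. Lower signals were found in 37 members under a second quantile normalization and in 36 under median centring, cyclic loess or array weights. Birc5 turned to 0.0083 under median centring and 0.0199 under cyclic loess, and Rrm2 to 0.0049 under array weights. The members' median standard deviation within a genotype, 0.26, was larger than their median difference in size and larger than that of all tested genes, 0.15. Of the 38, Tyms and Mki67 had an unadjusted p under 0.05, both lower (2 of 38; at that p 5.23% of all tested genes were called, 3.03% lower). That count was 0 without wild-type replicate 1, wild-type replicate 3, VDR-null replicate 1 or VDR-null replicate 2, 6 without wild-type replicate 2 and 15 without VDR-null replicate 3. Over all 13174 tested genes it was 284, 286, 396 and 372 in the first 4 of these settings. It was 1245 without wild-type replicate 2 and 1569 without VDR-null replicate 3, against 689 with all arrays. The genotypes did not overlap in 1 member, Foxm1, where 6.22% of all tested genes lay apart with VDR-null lower. In bulk tissue fewer dividing cells and less RNA of these genes per dividing cell cannot be told apart.

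**Figure D1:**
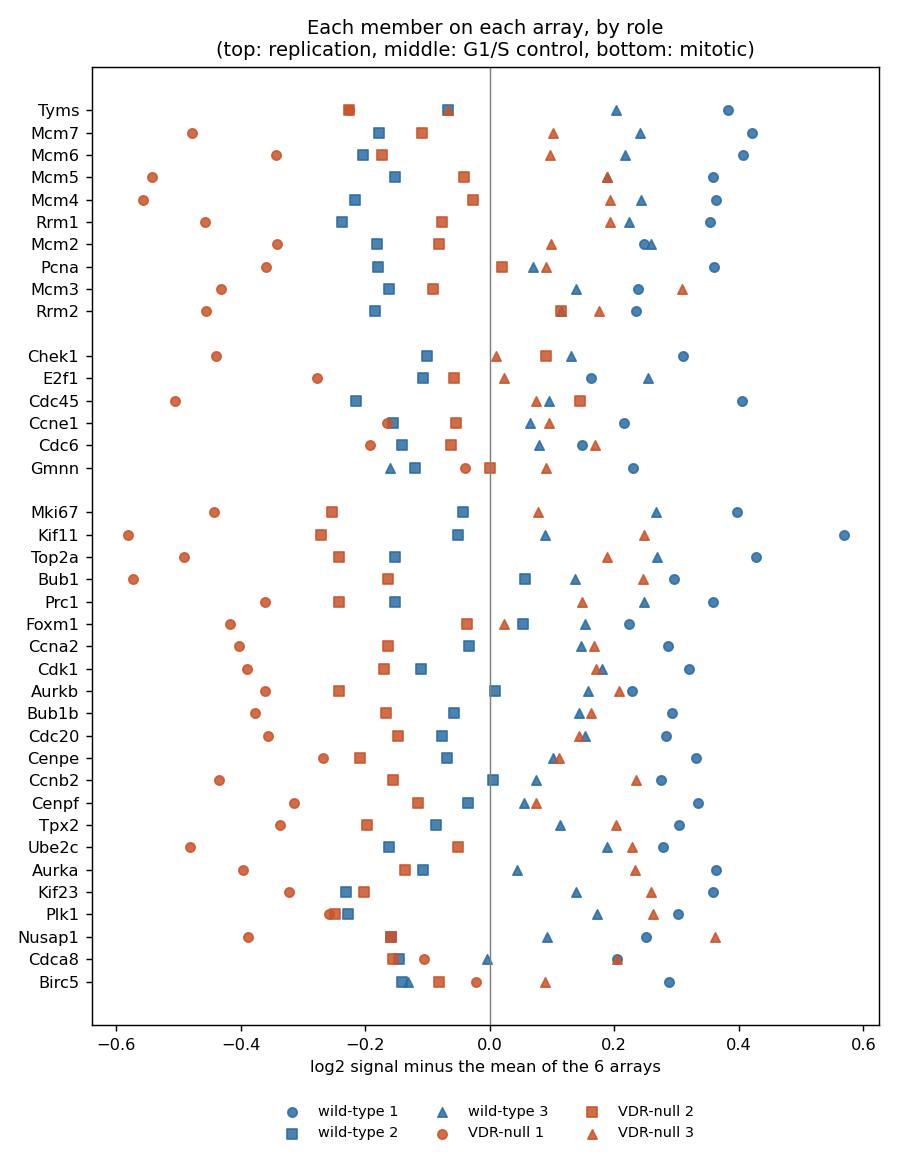
Log2 signal of each of the 38 members on each of the 6 arrays, minus the mean of that gene over the 6 arrays, with genes grouped by role and ordered by their difference between genotypes (blue wild-type, orange VDR-null; circle, square and triangle are replicates 1, 2 and 3). Wild-type replicate 1 is the highest point in 33 genes and VDR-null replicate 1 the lowest in 34, with the other 4 arrays mostly between them and mixed by genotype.

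The order of the arrays was nearly the same in most members. Wild-type replicate 1 was the highest of the 6 arrays in 33 of 38 members, and VDR-null replicate 1 the lowest in 34. Over all tested genes these arrays were highest and lowest in 30.2% and 33.5%. Within wild-type, replicate 3 lay between replicates 1 and 2 with replicate 1 on top in 35 of 38 members (26.9% of all tested genes); within VDR-null, replicate 3 was highest and replicate 1 lowest with replicate 2 between in 33 of 38 (27.2% of all tested genes). Averaged over the members and set against the 6-array mean, wild-type replicates 1 to 3 lay at 0.31, -0.12 and 0.14, and the VDR-null replicates at -0.37, -0.12 and 0.15. VDR-null replicate 3 thus stood above wild-type replicate 2 and level with wild-type replicate 3. The standard deviation of this mean was 0.22 in wild-type and 0.26 in VDR-null (n = 3 each), against a difference between genotypes of -0.22. Without both replicate 1 arrays the mean difference over the members was 0.0105, with 20 members lower and 18 higher (45.6% of all tested genes were lower in that fit). These 2 arrays were the members' highest and lowest, so leaving out both had to draw the difference towards 0. Values without them, here and below, therefore show how much rests on these arrays and are no independent check. The mean difference also moved when single arrays were left out. It was -0.12 without wild-type replicate 1 alone and -0.0901 without VDR-null replicate 1 alone. It grew in size to -0.33 without wild-type replicate 2 and -0.35 without VDR-null replicate 3.

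Promoters of the members carried different letters by role, and are shown here because replication and mitotic genes are known to be transcribed through different elements. E2F factors bind sites of the E2F type at genes of the G1/S wave; the cell cycle genes homology region (CHR) recruits the DREAM and MuvB complexes at mitotic genes, often beside a CCAAT box, which binds NF-Y. RefSeq windows of 250 bases before to 50 after the transcription start (GRCm38.p6) matched 33 of the 40 members by symbol; Mcm4, Gmnn, Ccne2, Ccna2, Tpx2, Aurkb and Foxm1 had no entry. Both strands were searched. The E2F type was taken as any of 4 spellings: the first was TTCCCGC, the second spelling was TTCGCGC, the third spelling was TTGCCGC and the fourth spelling was TTGGCGC. A CHR was read as TTTGAA or, in its variant form, TTCGAA, and the CCAAT box as its name spells it. Matches of different motifs overlapped in few places: 2 of 17 E2F-type matches in replication genes and 1 of 23 CHR matches in mitotic genes touched another motif. A match describes these letters and shows no binding. The stretches printed next, with matches of all 3 motifs in capitals, end at the start of the annotated gene. They are, of each role, the members with most kinds of motif among those with at least 150 such bases, ties broken by the smallest p. Mcm6 (chr1:128359706-128359955, minus strand), Mcm2 (chr6:88898781-88899030, minus strand) and Mcm5 (chr8:75109259-75109467, plus strand) stand for replication.
Mcm6: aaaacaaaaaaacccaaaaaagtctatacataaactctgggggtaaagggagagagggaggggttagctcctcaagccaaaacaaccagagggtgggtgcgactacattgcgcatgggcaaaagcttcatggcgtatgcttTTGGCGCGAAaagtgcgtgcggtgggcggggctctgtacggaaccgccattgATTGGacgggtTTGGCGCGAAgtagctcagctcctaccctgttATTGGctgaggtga
Mcm2: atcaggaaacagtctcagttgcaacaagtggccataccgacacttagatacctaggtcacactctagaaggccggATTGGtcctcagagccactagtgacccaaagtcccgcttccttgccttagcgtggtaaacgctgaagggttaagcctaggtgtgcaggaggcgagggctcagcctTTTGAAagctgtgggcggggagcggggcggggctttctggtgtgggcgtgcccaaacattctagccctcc
Mcm5: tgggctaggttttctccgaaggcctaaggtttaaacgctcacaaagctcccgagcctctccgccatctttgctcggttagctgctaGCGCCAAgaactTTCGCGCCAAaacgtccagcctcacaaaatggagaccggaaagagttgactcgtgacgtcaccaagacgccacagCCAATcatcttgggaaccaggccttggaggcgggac
Mki67 (chr7:135716451-135716629, minus strand), Cdk1 (chr10:69352913-69353162, minus strand) and Top2a (chr11:99024200-99024439, minus strand) stand for the mitotic genes.
Mki67: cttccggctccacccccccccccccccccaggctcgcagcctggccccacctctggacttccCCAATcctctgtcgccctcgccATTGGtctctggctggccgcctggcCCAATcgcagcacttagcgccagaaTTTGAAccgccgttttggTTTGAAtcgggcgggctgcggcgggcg
Cdk1: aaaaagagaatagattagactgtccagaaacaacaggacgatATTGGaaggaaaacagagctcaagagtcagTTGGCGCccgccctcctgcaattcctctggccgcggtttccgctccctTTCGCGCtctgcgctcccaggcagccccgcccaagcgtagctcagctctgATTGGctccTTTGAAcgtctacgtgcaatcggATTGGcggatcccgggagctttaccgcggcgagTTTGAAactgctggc
Top2a: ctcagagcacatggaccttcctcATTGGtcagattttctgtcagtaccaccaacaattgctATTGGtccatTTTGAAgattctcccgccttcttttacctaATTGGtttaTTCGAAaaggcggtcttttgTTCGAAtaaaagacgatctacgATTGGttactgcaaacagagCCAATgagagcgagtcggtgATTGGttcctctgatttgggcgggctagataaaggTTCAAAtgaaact

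In these stretches Mcm6 held 4 E2F-type matches, overlapping in pairs, and 2 CCAAT boxes, and Mcm5 held 3 E2F-type matches and 1 CCAAT box. Mcm2 held 1 CHR and 1 CCAAT box and no E2F-type match. Top2a held 4 CHR matches and 6 CCAAT boxes, Mki67 2 CHR matches and 3 CCAAT boxes, and Cdk1 2 of each of the E2F type and CHR with 3 CCAAT boxes. Over the whole windows an E2F-type match was present in 6 of 9 replication genes with a window but in 3 of 19 mitotic genes, where 10.9% of the 27025 genes with a window held one. A CHR was present in 15 of 19 mitotic genes and 2 of 9 replication genes (21.7% of all genes). CCAAT boxes were common to both roles, in 8 of 9 replication and 17 of 19 mitotic genes, against 41.1% of all genes. Of the mitotic genes 11 of 19 held at least 2 of them (13.3% of all genes). The CHR matches of mitotic genes lay close to the start, with a median first base at -19, and 14 of the 15 genes had one from base -50 on. In these 14 a CCAAT box preceded that CHR by 9 to 153 bases, and by 24 to 35 bases in Ccnb2, Cdc20, Cdca8, Cdk1, Kif11, Prc1, Top2a and Ube2c. Beyond the members, an E2F-type match was found in 26 of 40 further replication genes, 20 of 58 further mitotic genes (34.5%) and 1 of 24 brush border genes, and a CHR in 8 of 40, 40 of 58 and 4 of 24. Tyms, E2f1, Ccne1, Nusap1 and Birc5 held none of the 3 motifs in the window.

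**Figure D2:**
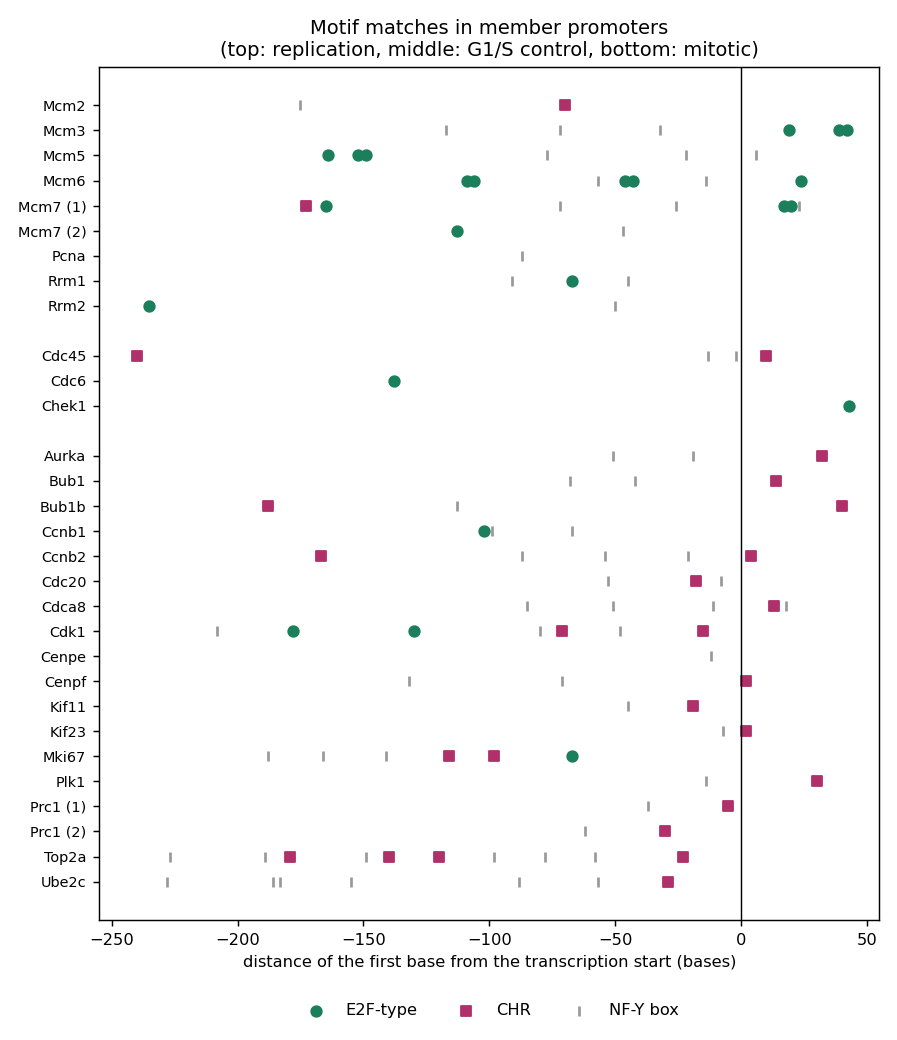
Distance of each motif match from the transcription start in bases, for the promoter windows of members that held a match, grouped by role (2 windows each for Mcm7 and Prc1; green circles E2F type, red squares CHR, grey ticks the CCAAT box that binds NF-Y). CHR matches gather near the start of mitotic genes, with a median first base at -19, and E2F-type matches lie mostly in replication genes.

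Median differences between genotypes were also taken by motif. The 10 tested members with an E2F-type match had a median difference of -0.25 and the 22 without one -0.21. Leaving out both replicate 1 arrays, these were 0.0471 and -0.0148. The 18 with a CHR had a median of -0.24 and the 14 without one -0.19, or -0.0315 and 0.0654 without those arrays. These medians describe overlapping sets of genes on the same 6 arrays and were not compared by a test.

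The 10 replication genes differed between VDR-null and wild-type duodenum by a mean of -0.23, with all 10 below 0 (Rrm2 not under array weights). Of these, 1, Tyms, had an unadjusted p under 0.05 (3.03% of all tested genes were lower at that p). Tyms encodes thymidylate synthase, which makes the thymidine nucleotide for DNA. It read 8.74, 8.29 and 8.56 (wild-type replicates 1 to 3) against 8.13, 8.13 and 8.29 (VDR-null). VDR-null replicates 1 and 2 lay below every wild-type array, while VDR-null replicate 3 met wild-type replicate 2. The difference was -0.34 ± 0.13 (SE), or 1.27-fold higher in wild-type (limma unadjusted p = 0.0359, adjusted p = 0.683), and -0.21 without both replicate 1 arrays.

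The Mcm genes encode the 6 subunits of the replicative helicase, which form 1 ring. Mcm7 read 9.48, 8.88 and 9.30 (wild-type) against 8.58, 8.95 and 9.16 (VDR-null), a difference of -0.32 ± 0.20 (SE). Mcm6 read 9.32, 8.71 and 9.13 against 8.57, 8.74 and 9.01 (-0.28 ± 0.19). In both, wild-type replicate 2 lay among the VDR-null arrays. Mcm5 read 9.64, 9.13 and 9.47 (wild-type) against 8.74, 9.24 and 9.47 (VDR-null; difference -0.26 ± 0.21), and Mcm4 9.39, 8.81 and 9.27 against 8.47, 9.0 and 9.22 (-0.26 ± 0.23). Both had their lowest value on VDR-null replicate 1 by a margin, with the other VDR-null arrays inside the wild-type range. Mcm2 read 8.84, 8.41 and 8.85 against 8.25, 8.51 and 8.69 (-0.22 ± 0.17), and Mcm3 8.02, 7.62 and 7.92 against 7.35, 7.69 and 8.09 (-0.14 ± 0.20), where VDR-null replicate 3 was the highest of the 6. VDR-null replicate 1 was the lowest array for all 6 subunits. Leaving out both replicate 1 arrays, Mcm7, Mcm6 and Mcm2 differed by -0.0372, -0.0435 and -0.0313 and Mcm5, Mcm4 and Mcm3 by 0.0545, 0.0664 and 0.12. The limma adjusted p of the 6 ran from 0.683 to 0.813.

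Pcna, the sliding clamp that holds DNA polymerase on its template, read 10.88, 10.34 and 10.59 (wild-type) against 10.16, 10.54 and 10.61 (VDR-null; difference -0.17 ± 0.18, SE). Its VDR-null replicates 2 and 3 were within the wild-type range. Rrm1 and Rrm2, the large and small subunits of ribonucleotide reductase, differed by -0.23 ± 0.21 and -0.11 ± 0.20. Rrm2 had a second, dim probe set with values between 3.20 and 3.40, which was not used. Without both replicate 1 arrays Pcna, Rrm1 and Rrm2 were 0.11, 0.0605 and 0.18.

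The 6 G1/S control genes had the smallest mean difference of the 3 roles, -0.12, with 5 lower and 0 at an unadjusted p under 0.05. E2f1, the transcription factor that drives the G1/S genes, read 7.22, 6.95 and 7.31 (wild-type) against 6.78, 7.0 and 7.08 (VDR-null; difference -0.21 ± 0.13, SE). Wild-type replicate 2 lay below VDR-null replicates 2 and 3. Chek1, the kinase of the replication checkpoint, read 6.80, 6.39 and 6.62 against 6.05, 6.58 and 6.50 (-0.22 ± 0.17), again with wild-type replicate 2 below both of those arrays. Cdc45, which joins the helicase when an origin fires, differed by -0.19 ± 0.22; Ccne1, cyclin E1, by -0.0827 ± 0.13; and the loading factor Cdc6 by -0.0596 ± 0.13. Without both replicate 1 arrays only E2f1 of the 6 was below 0, at -0.0895, and the other 5 lay between 0.0397 and 0.18.

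The 22 mitotic genes differed by a mean of -0.24, with all 22 below 0 (Birc5 not under median centring or cyclic loess). Of these, 1 had an unadjusted p under 0.05 (3.03% of all tested genes were lower at that p). The genotypes did not overlap in 1 (6.22% of all tested genes lay apart with VDR-null lower). Mki67, the marker of proliferating cells that coats mitotic chromosomes, read 10.72, 10.28 and 10.59 (wild-type replicates 1 to 3) against 9.88, 10.07 and 10.40 (VDR-null). Its VDR-null replicates 1 and 2 lay below all wild-type arrays and replicate 3 above wild-type replicate 2. The difference, -0.42 ± 0.17 (SE), or 1.33-fold higher in wild-type, was the largest in size of the 38 (limma unadjusted p = 0.0472, adjusted p = 0.683; -0.20 without both replicate 1 arrays). Foxm1, the transcription factor of the G2/M wave, read 7.50, 7.33 and 7.43 against 6.86, 7.24 and 7.30 (-0.29 ± 0.13). All VDR-null arrays were below all wild-type arrays, with VDR-null replicate 3 just under wild-type replicate 2. Top2a, topoisomerase II alpha, which untangles sister chromatids, read 9.75, 9.17 and 9.59 (wild-type) against 8.83, 9.08 and 9.51 (VDR-null; difference -0.36 ± 0.21), and VDR-null replicate 3 lay within the wild-type range.

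Among cyclins, kinases and the anaphase-promoting complex all 6 members described next were below 0, none at an unadjusted p under 0.05. Ccna2, cyclin A2, read 10.22, 9.90 and 10.08 (wild-type) against 9.53, 9.77 and 10.10 (VDR-null; difference -0.27 ± 0.16, SE). VDR-null replicate 3 exceeded wild-type replicates 2 and 3. Ccnb2, cyclin B2, and the kinase Cdk1 that these cyclins activate differed by -0.24 ± 0.18 and -0.26 ± 0.18. Plk1, the polo-like kinase of mitotic entry, differed by -0.16 ± 0.19. Cdc20 and Ube2c, an activator and the ubiquitin-conjugating enzyme of the anaphase-promoting complex, differed by -0.24 ± 0.15 and -0.20 ± 0.20.

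The chromosomal passenger complex, which corrects faulty attachment of chromosomes to the spindle, is represented by 3 members. Aurkb, its kinase, differed by -0.26 ± 0.16 (SE). Cdca8 and Birc5, borealin and survivin, differed by -0.0382 ± 0.14 and -0.0114 ± 0.14, the smallest in size of the mitotic genes. Their intervals, -0.37 to 0.29 and -0.34 to 0.32 (95% confidence), overlap that of Aurkb, -0.64 to 0.12, and the differences between the 3 subunits were not tested.

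At the kinetochore, Bub1, a kinase of the spindle checkpoint, and its relative Bub1b differed by -0.33 ± 0.20 (SE) and -0.25 ± 0.16. Cenpf, a protein of the outer kinetochore, read 7.56, 7.19 and 7.28 against 6.91, 7.11 and 7.30 (-0.24 ± 0.14). The kinetochore motor Cenpe read 8.07, 7.67 and 7.84 (wild-type) against 7.47, 7.53 and 7.85 (VDR-null; difference -0.24 ± 0.15). In both, VDR-null replicate 3 was inside the wild-type range. Among genes of the spindle, Prc1, which bundles the microtubules of the central spindle, read 8.42, 7.91 and 8.31 against 7.70, 7.82 and 8.21 (-0.31 ± 0.18), again with VDR-null replicate 3 inside the wild-type range. Kif11, the motor that pushes the spindle poles apart, read 9.50, 8.88 and 9.02 (wild-type) against 8.35, 8.66 and 9.18 (VDR-null; difference -0.40 ± 0.25). It had the widest range of the 38 over the arrays, 1.15, with VDR-null replicate 3 inside the wild-type range, and differed by -0.0275 without both replicate 1 arrays. Tpx2 and Aurka, which act together at the spindle pole, differed by -0.22 ± 0.17 and -0.20 ± 0.19, and Kif23 and Nusap1, of the central spindle and of spindle microtubules, by -0.18 ± 0.20 and -0.12 ± 0.21. The limma adjusted p of the mitotic genes lay between 0.683 and 0.979. Without both replicate 1 arrays 15 of the 22 were lower and 7 higher, with a mean of -0.0143.

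**Figure D3:**
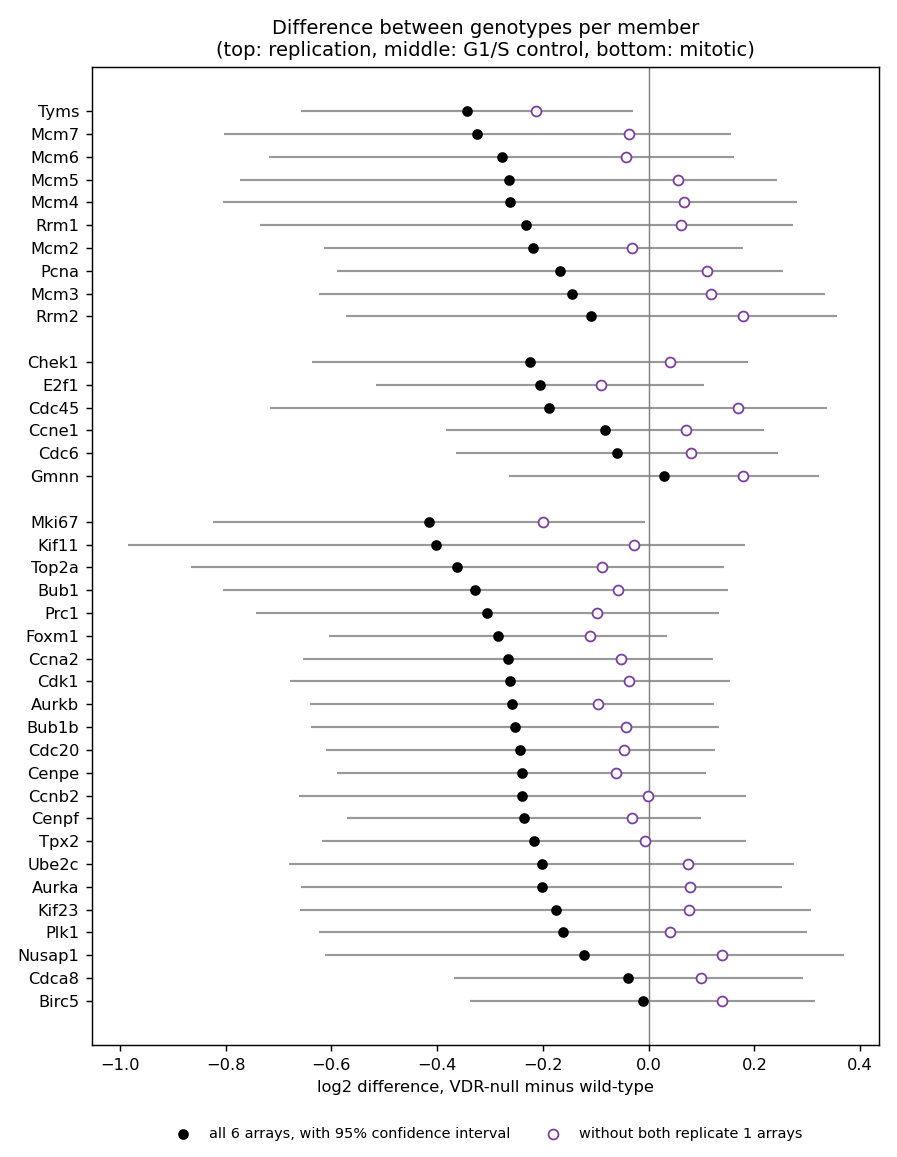
Log2 difference, VDR-null minus wild-type, of each member over all 6 arrays (filled points with limma's 95% confidence interval) and without both replicate 1 arrays (open points), grouped by role. All filled points but that of Gmnn lie below 0, and the open points lie on both sides of it, 20 below and 18 above.

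The balance of replication against mitotic genes differed between genotypes by less than the spread of the arrays, with no covariate in the fit. The mean of the replication members minus that of the mitotic members, each centred per gene, was 0.0192, -0.089 and 0.0647 (wild-type replicates 1 to 3) against -0.0521, 0.10 and -0.0464 (VDR-null). The genotype means were -0.0017 ± 0.0789 and 0.0017 ± 0.0883 (SD, n = 3 each), a difference of 0.0034 that is inside the spread of either. It was -0.0402 without wild-type replicate 2 and -0.0476 without VDR-null replicate 2, so its sign rests on single arrays. With the mean signal of smooth muscle markers as a covariate it was 0.10. The spreads above are taken without that covariate and do not measure the error of this value. The covariate had an SD of 0.0077 in VDR-null and 0.28 in wild-type, so its slope came mostly from the wild-type arrays. No p is given for the balance, as the members were picked with results of these arrays known. G1/S control minus mitotic members lay at -0.0725, -0.0517 and -0.0493 (wild-type) against 0.0967, 0.18 and -0.11 (VDR-null), a difference of 0.12 with the wild-type arrays inside the VDR-null range.

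Single arrays did differ in that balance. VDR-null replicate 2 was the array with the highest replication against mitotic signal and wild-type replicate 2 the one with the lowest. Between these 2 arrays, which were compared after their values were seen, VDR-null replicate 2 was higher in 9 of 10 replication genes and 6 of 6 G1/S control genes but in 4 of 22 mitotic genes (54% of all tested genes). The arrays are the extremes of that same balance, so a split between replication and mitotic genes was bound to follow from the choice. For VDR-null replicate 3 against wild-type replicate 3 the difference in balance had the other sign, -0.11. Wild-type was higher in 6 of 10 replication, 3 of 6 G1/S control and 6 of 22 mitotic genes (48% of all tested genes). For replication and G1/S control genes these counts are near the share of all genes. The 2 comparisons have 1 array on each side and no replicate check, and genes of 1 array are not replicates.

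**Figure D4:**
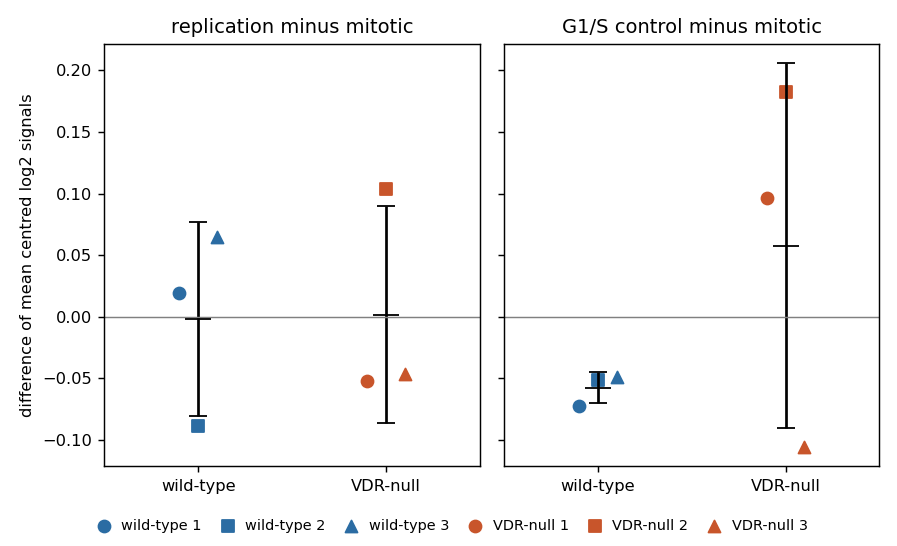
Mean centred log2 signal of the replication members (left) or the G1/S control members (right) minus that of the mitotic members on each array, by genotype, with the mean and standard deviation of 3 arrays in black. On the left both genotypes centre near 0, with VDR-null replicate 2 highest at 0.10 and wild-type replicate 2 lowest at -0.089.

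Other genes of replication and mitosis, from lists that leave out the members, were mostly lower as well. Of 46 further replication genes tested 45 were lower and 0 had an unadjusted p under 0.05 (mean -0.19, median -0.19). The subunits Rfc1 and Rfc5 of the clamp loader differed by -0.26 ± 0.14 and -0.28 ± 0.15 (SE), and the primase subunit Prim2 by -0.29 ± 0.17. Of 59 further mitotic genes 56 were lower (mean -0.21, median -0.22), 2 of them at an unadjusted p under 0.05 (3.03% of all tested genes were lower at that p). The genotypes did not overlap in 1 of the 59, Cdkn3 (6.22% of all tested genes lay apart with VDR-null lower). Cdkn3, a phosphatase of cyclin-dependent kinases, read 7.88, 7.52 and 7.69 (wild-type) against 7.28, 7.30 and 7.50 (VDR-null) without overlap (-0.34 ± 0.12). The kinetochore gene Nuf2 differed by -0.39 ± 0.16 and Cdca7 by -0.46 ± 0.19. None passed adjustment (limma adjusted p = 0.683 for each of these 3). Leaving out both replicate 1 arrays, the means were 0.0192 and -0.0053.

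Replication-dependent histones, which are made in S phase to package new DNA, are near-identical copies, and 26 of 65 listed genes had a probe set named with that symbol alone, of which 15 were bright enough to test. Of these 13 were lower, with a mean of -0.20 and 0 at an unadjusted p under 0.05. H4f16 read 7.88, 7.81 and 7.83 (wild-type) against 7.60, 7.38 and 7.78 (VDR-null) and H2bc21 6.25, 6.28 and 6.41 against 5.84, 6.15 and 6.24, both without overlap (2 of the 15, where 6.22% of all tested genes lay apart with VDR-null lower). Their differences were -0.25 ± 0.12 (SE) and -0.24 ± 0.13, and that of the linker histone H1f2 was -0.18 ± 0.10. The array may not tell these copies apart, so the values are uncertain.

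Cyclins, kinases and E2F factors of G1 were lower in 17 of 19 cases (mean -0.15), with E2f6 at -0.25 ± 0.13 (SE) and E2f7 at -0.22 ± 0.15. The kinase Cdk6 (-0.38 ± 0.16) was the 1 gene of the 19 at an unadjusted p under 0.05 (3.03% of all tested genes were lower at that p). Cell-cycle inhibitors and pocket proteins split, with 13 higher and 9 lower of 22 (mean 0.13). Mdm2, the ubiquitin ligase of the p53 protein, read 7.59, 7.74 and 7.45 (wild-type) against 8.18, 7.84 and 7.79 (VDR-null) without overlap (2 of the 22 lay apart with VDR-null higher, where 4.87% of all tested genes did; 0.34 ± 0.14; limma unadjusted p = 0.041, adjusted p = 0.683), and was the 1 inhibitor-list gene at an unadjusted p under 0.05 (2.2% of all tested genes were higher at that p). Tob1, an antiproliferative protein, differed by 0.50 ± 0.24 and the kinase inhibitor Cdkn1b by -0.22 ± 0.12. The array order of Cdkn1a, a cyclin-dependent kinase inhibitor, and of Ccng2, a cyclin linked to cell-cycle arrest, was within each genotype the reverse of the members', and both were singled out after their values were seen. Cdkn1a read 8.32, 9.75 and 9.59 (wild-type) against 10.43, 10.28 and 9.15 (VDR-null), lowest on wild-type replicate 1 and highest on VDR-null replicate 1. Ccng2 read 6.75, 7.81 and 7.37 against 8.81, 8.03 and 7.17. Their differences, 0.73 ± 0.47 and 0.69 ± 0.44, were 0.0443 and 0.0075 without both replicate 1 arrays.

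Markers of other cells of the sample also differed between the arrays. Crypt stem cell markers were lower in 15 of 15 cases (mean -0.29), and in 12 without both replicate 1 arrays (mean -0.0929). Lgr5, the stem cell receptor, differed by -0.54 ± 0.19 (SE) and the crypt transporter Slc12a2 by -0.50 ± 0.21. Of the 15, 1 had an unadjusted p under 0.05 (3.03% of all tested genes were lower at that p). The genotypes did not overlap in 2 (6.22% of all tested genes lay apart with VDR-null lower). Relative to the 6-array mean the arrays lay at 0.30, -0.0727 and 0.21 (wild-type) against -0.38, -0.18 and 0.13 (VDR-null). Enterocyte and brush border markers were higher in 23 of 23 cases (mean 0.79, with Anpep at 0.66 ± 0.18 and Enpep at 1.12 ± 0.35). Of the 23, 2 had an unadjusted p under 0.05 (2.2% of all tested genes were higher at that p). The genotypes did not overlap in 2 (4.87% of all tested genes lay apart with VDR-null higher). Leaving out both replicate 1 arrays, the mean of the 23 was 0.0435, with 8 lower and 15 higher, and Anpep and Enpep were at 0.41 and 0.52. The mean log2 signal of the 23 ran from 9.54 to 11.09 in wild-type and from 10.81 to 11.81 in VDR-null duodenum. It was lowest on wild-type replicate 1 and highest on VDR-null replicate 1, the arrays at the opposite ends for the members. With this mean as a covariate the members' mean difference was 0.0104, with 20 lower and 18 higher (46% of all tested genes were lower in that fit). Smooth muscle markers were lower in 12 of 12 cases, with Synpo2 at -0.42 ± 0.12 and Mylk at -0.41 ± 0.12. Of the 12, 7 had an unadjusted p under 0.05 (3.03% of all tested genes were lower at that p). The genotypes did not overlap in 6 (6.22% of all tested genes lay apart with VDR-null lower). Leaving out both replicate 1 arrays, the mean difference of smooth muscle markers was -0.30, with 12 lower and 0 higher. Their mean signal was 9.50 to 10.03 in wild-type and 9.46 to 9.47 in VDR-null duodenum. With it as a covariate the members' mean difference was 0.0251, with 14 lower and 24 higher. Both covariates differed between the genotypes themselves, by a mean of 0.79 and -0.37. Adjusting for them can therefore also take away a difference that belongs to genotype. The part of enterocytes, stem cells or smooth muscle in the members' values was not tested.

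**Figure D5:**
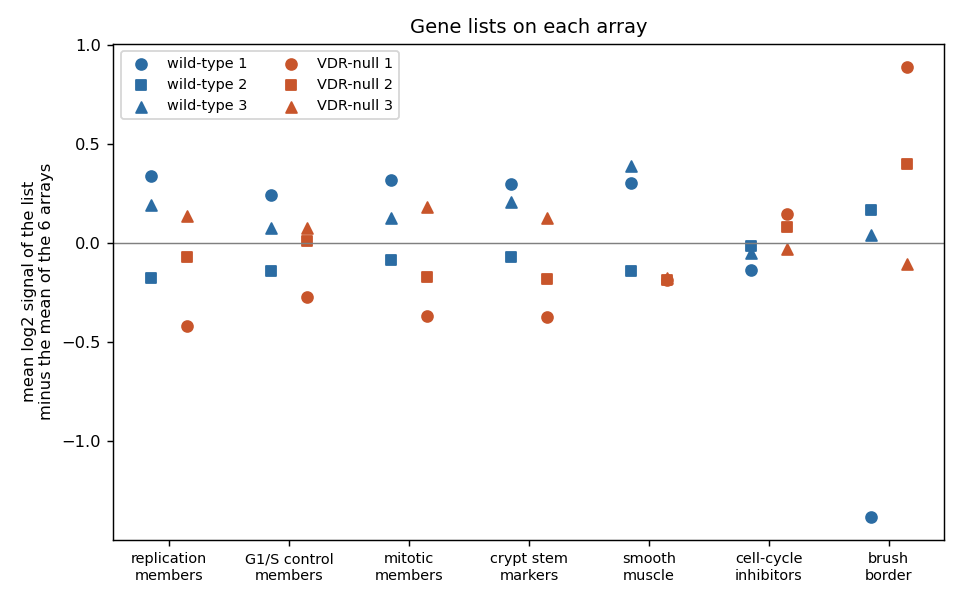
Mean log2 signal of 3 groups of members and 4 other gene lists on each array, less the 6-array mean (blue wild-type, orange VDR-null; circle, square and triangle are replicates 1, 2 and 3). Wild-type replicate 1 is highest for the members and lowest, at -1.38, for brush border genes, and VDR-null replicate 1 is lowest for the members and highest, at 0.89, for brush border genes.

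Dividing lymphocytes also express the members. T cell markers were higher in 9 of 9 cases, with a mean signal of 6.22 to 7.39 in wild-type and 6.73 to 7.68 in VDR-null mice, and Cd3g at 0.77 ± 0.38 and Cd3e at 0.70 ± 0.39 (SE). B cell and germinal centre markers failed the filter in 6 of 11 cases, Ms4a1, Pax5, Cr2 and Cxcr5 among them, and 4 of the 5 tested were higher, with a mean signal of 6.67 to 7.28 and 6.79 to 7.36, S1pr2 at 0.18 ± 0.14 and Cd79a at 0.37 ± 0.41. Paneth cell markers were lower in 6 of 6 cases, with a mean signal of 11.12 to 12.02 in wild-type and 10.78 to 11.68 in VDR-null mice. Brunner gland markers were lower in 4 of 4 tested (6.63 to 8.04 and 5.92 to 6.92), and pancreatic acinar markers higher in 3 of 3 tested (5.87 to 6.42 and 6.33 to 9.81), most of all on VDR-null replicate 3. Of the red cell precursor markers Klf1 and Slc4a1 failed the filter, and the 2 tested had a mean signal of 7.28 to 7.56 and 7.14 to 7.51. Leaving out both replicate 1 arrays, the mean difference of Paneth cell markers was 0.26, with 1 lower and 5 higher. That of T cell markers was 0.13, with 3 lower and 6 higher, and that of B cell markers 0.28, with 0 lower and 5 higher. Brunner gland markers were then lower in 4 of 4 and pancreatic acinar markers higher in 3 of 3. The part of T cells, B cells, Paneth cells, Brunner glands, pancreas and red cell precursors in the members' values was not tested.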

How the data were processed

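Duodenal RNA came from 3 samples of each genotype and went onto Affymetrix Mouse Gene 2.0 ST arrays, and samples were grouped by their titles. The authors deposited log2 signals of 41345 probe sets, computed by RMA; per the submitters' processing notes the program was Affymetrix Expression Console, with no version named, nor whether all 6 arrays entered 1 normalization. The annotation gave 23521 probe sets a single symbol and 1814 more than 1, while 16010 had none; only the first were named. Genes above the median of all values, 5.17, on 3 or more arrays were kept for testing. The fit used limma 3.58.1 (R 4.3.3), lmFit then eBayes on genotype alone. Two-sided p-values were adjusted by Benjamini-Hochberg across 13174 genes, with 0.05 as threshold. The procedure was tested on simulated data with independent genes, checking only the mean size of planted changes. Deviations that many genes share on an array, as here, were not simulated. Differences are VDR-null minus wild-type. The members and lists were chosen with earlier results of these data known. Values on every array are given for the 5 replication, 2 G1/S control and 8 mitotic members with the smallest p and for Mki67, Top2a, Pcna and the Mcm family; of other lists up to 3 genes, and of marker lists up to 2, with the smallest p are named. Alternatives were filters, normalizations, limma's trend and robust options, array weights, the replicate block, arrays left out, the mean of probe sets, and the mean signal of brush border or smooth muscle markers as a covariate. Promoter windows came from RefSeq and were scanned for exact letters.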

Additional observations from a re-analysis of the deposited data

How the results depend on the processing

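No gene passed an adjusted p of 0.05 under any of the 20 alternatives, over all genes or among the members. The count of members at an unadjusted p under 0.05 was 2 with all arrays and no covariate. It was 1 with median centring, 9 with array weights, 0 with the replicate block, and 0 without both replicate 1 arrays or with either covariate. With a single array left out it ran from 0 to 15, and it was 2 under the others. Over all 13174 tested genes the count was 689 in the main fit and 2718 with array weights. It was 372 without both replicate 1 arrays, 402 with the brush border covariate and 142 with the smooth muscle covariate. With a single array left out it ran from 284 to 1569 over all genes. The members' mean difference of -0.22 turned to 0.0105 without both replicate 1 arrays, 0.0104 with the brush border covariate and 0.0251 with the smooth muscle covariate. For replication members these values were 0.0265, 0.0151 and 0.084, and for G1/S control members 0.0746, 0.0611 and 0.0876; the mitotic mean of -0.24 shrank to -0.0143, -0.0055 and -0.0187, with its sign kept. Replication minus mitotic was 0.10 with the smooth muscle covariate and ran from -0.0476 to 0.0366 with single arrays left out. Leaving out both replicate 1 arrays takes away the members' highest and lowest array, so a shift of the members' mean difference towards 0 was bound to follow. The cause of these changes was not tested. Replicate numbers did not pair the arrays (correlations of the deviations of same-numbered arrays -0.62, 0.19 and -0.26), and the replicate block moved the count of genes at an unadjusted p under 0.05 from 689 to 338, with the direction of all 38 members kept.

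Single genes that turned sign are given by their log2 difference. Without both replicate 1 arrays these were Chek1 0.0397, Plk1 0.0401, Mcm5 0.0545, Rrm1 0.0605, Mcm4 0.0664, Ccne1 0.0704, Ube2c 0.0742, Kif23 0.0767, Aurka 0.0787, Cdc6 0.0793, Cdca8 0.0985, Pcna 0.11, Mcm3 0.12, Birc5 0.14, Nusap1 0.14, Cdc45 0.17, Rrm2 0.18. With the brush border covariate they were Cdkn1a -0.0586, Tpx2 0.0118, Mcm5 0.0225, Mcm4 0.0346, Ube2c 0.0496, Rrm1 0.0507, Ccne1 0.081, Aurka 0.0834, Plk1 0.0846, Cdc6 0.0854, Pcna 0.0931, Mcm3 0.11, Kif23 0.11, Cdc45 0.12, Rrm2 0.13, Cdca8 0.14, Nusap1 0.15, Birc5 0.18. With the smooth muscle covariate they were Cd79a -0.46, Cd3e -0.10, Cd3g -0.0221, Chek1 0.0008, Cdk1 0.0009, Aurka 0.0072, E2f1 0.033, Prc1 0.0346, Mcm5 0.0387, Mcm7 0.0444, Ube2c 0.0866, Mcm6 0.0931, Pcna 0.10, Mcm3 0.11, Mcm2 0.12, Birc5 0.12, Mcm4 0.12, Nusap1 0.12, Ccne1 0.12, Cdc6 0.13, Cdca8 0.13, Cdc45 0.14, Rrm1 0.15, Rrm2 0.15, Kif23 0.17, Plk1 0.18. Rrm2 was 0.0049 with array weights, and Birc5 0.0083 with median centring and 0.0199 with cyclic loess. With single arrays left out the range was Mcm3 from -0.33 to 0.0351, Rrm2 from -0.23 to 0.0911, Ccne1 from -0.18 to 0.006, Cdc6 from -0.16 to 0.0216, Cdc45 from -0.35 to 0.0153, Gmnn from -0.0412 to 0.15, Cdca8 from -0.15 to 0.0558, Birc5 from -0.0855 to 0.13, Nusap1 from -0.33 to 0.0417. The number of arrays, 3 a genotype, limits the precision, and each covariate leaves 3 residual degrees of freedom per gene.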
